A study of Homo sapiens and Mus musculus with 12 samples.

Results

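The genes described here are 42 genes of the G2/M transition and of mitosis: mitotic kinases and their activators, kinetochore and checkpoint proteins, spindle motors and cytokinesis factors. They were chosen by symbol, and the mouse genes are those that carry the same symbol. All 42 were found among the 63677 human gene identifiers and all passed the filter on low counts. Among the 47729 mouse identifiers 41 were found and tested, since no mouse gene carried the symbol *Kif4a*. The transcriptome was sequenced in human MDA-MB-231 cells, a line of triple-negative breast cancer (TNBC), and in murine 4T1 cells, a line of mammary carcinoma. Both lines were labelled wild type (WT) and received for 24 h either the solvent DMSO or 1 μM ponatinib, which inhibits several tyrosine kinases. There were 3 libraries in each of the 4 groups, 12 in all, with total counts of 15012884 to 17301760 in MDA-MB-231 and of 17800675 to 18951493 in 4T1. Each line stands for 1 culture model without stromal or immune cells, and nothing in the sources used here states that the replicates came from separate cultures, so p-values measure only the spread between these libraries, which may be technical.

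Entry into mitosis is driven by cyclin-dependent kinase 1 (CDK1) bound to cyclin A or cyclin B, switched on by the CDC25 phosphatases. Polo-like kinase 1 and the Aurora kinases then build the spindle and attach chromosomes, the spindle checkpoint holds the cell until every kinetochore is attached, and the anaphase-promoting complex with CDC20 destroys cyclin B and securin so that the cell can divide. Transcripts of these genes peak in G2 and mitosis, are low in resting cells, and are controlled in large part through the CHR element and CCAAT boxes of their promoters, the sites of the DREAM and MuvB complexes and of NF-Y.

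Promoters of the members with the largest falls are shown first, because their CHR and CCAAT letters are a feature that the rule did not use and that many members hold. A search was made on both strands for the letters TTTGAA, the core of the CHR element, and CCAAT, the core of the NF-Y site. Windows ran from 250 bases before to 50 bases after the annotated start, 300 bases in all. Human windows came from RefSeq on GRCh38.p14 and matched 35 of the 42 members, without *AURKA*, *BIRC5*, *BUB3*, *FOXM1*, *TPX2*, *TTK* and *UBE2C*. Mouse windows were read from the GRCm39 genome at the start of the canonical transcript for all 41 members. The CHR letters stood in 25 of 35 human members (71.4%), where 12.1% of 15842 protein-coding promoters held them, and in 22 of 41 mouse members (53.7%), where 17.1% of 21751 did. CCAAT was found in 27 human members (77.1%, against 36.4% of all promoters) and in 27 mouse members (65.9%, against 39.9%). Both motifs together stood in 60.0% of the human and 46.3% of the mouse members, where 5.02% and 7.45% of all promoters held both. The motifs shared a base in 2 human and 1 mouse member promoters. These matches are letters in a window and not measured binding sites.

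The lines below print 200 bases, from 170 before the start to 30 after its first position, 5′ to 3′ on the gene's strand, with the motif letters of either strand in capitals. *SPC25*, *MAD2L1* and *AURKB* had the 3 largest falls in MDA-MB-231 among members with a motif, and *Prc1*, *Hmmr* and *Kif11* those in 4T1. Mouse *Ccnb2* was added after its values were seen, because it moved against the other members.
SPC25, human, GRCh38.p14 chr2:168890401-168890600, minus strand: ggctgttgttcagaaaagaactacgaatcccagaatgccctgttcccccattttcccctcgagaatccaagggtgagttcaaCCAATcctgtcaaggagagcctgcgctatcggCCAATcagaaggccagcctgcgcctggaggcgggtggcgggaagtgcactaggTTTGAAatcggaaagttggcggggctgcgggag
MAD2L1, human, GRCh38.p14 chr4:120066819-120067018, minus strand: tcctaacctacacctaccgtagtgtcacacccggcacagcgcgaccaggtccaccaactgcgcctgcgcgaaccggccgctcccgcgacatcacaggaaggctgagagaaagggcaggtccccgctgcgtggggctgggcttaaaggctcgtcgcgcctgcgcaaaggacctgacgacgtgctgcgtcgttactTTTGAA
AURKB, human, GRCh38.p14 chr17:8210196-8210395, minus strand: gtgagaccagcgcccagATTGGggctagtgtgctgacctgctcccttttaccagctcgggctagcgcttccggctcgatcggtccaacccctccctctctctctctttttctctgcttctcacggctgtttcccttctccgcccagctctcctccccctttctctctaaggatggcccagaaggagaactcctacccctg
Prc1, mouse, GRCm39 chr7:79944017-79944216, plus strand: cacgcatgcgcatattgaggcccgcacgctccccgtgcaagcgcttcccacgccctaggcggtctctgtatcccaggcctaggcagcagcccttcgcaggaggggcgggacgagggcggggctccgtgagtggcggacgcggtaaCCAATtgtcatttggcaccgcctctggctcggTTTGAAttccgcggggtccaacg
Hmmr, mouse, GRCm39 chr11:40624251-40624450, minus strand: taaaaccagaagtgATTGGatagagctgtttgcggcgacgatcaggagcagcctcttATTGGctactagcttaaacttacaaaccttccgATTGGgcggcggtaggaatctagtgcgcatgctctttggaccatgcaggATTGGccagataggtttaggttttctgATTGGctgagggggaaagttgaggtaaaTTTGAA
Kif11, mouse, GRCm39 chr19:37364629-37364828, plus strand: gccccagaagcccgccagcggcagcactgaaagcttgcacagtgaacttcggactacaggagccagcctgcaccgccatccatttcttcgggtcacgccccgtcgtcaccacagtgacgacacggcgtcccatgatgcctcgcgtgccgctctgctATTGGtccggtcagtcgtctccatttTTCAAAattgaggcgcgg
Ccnb2, mouse, GRCm39 chr9:70328845-70329044, minus strand: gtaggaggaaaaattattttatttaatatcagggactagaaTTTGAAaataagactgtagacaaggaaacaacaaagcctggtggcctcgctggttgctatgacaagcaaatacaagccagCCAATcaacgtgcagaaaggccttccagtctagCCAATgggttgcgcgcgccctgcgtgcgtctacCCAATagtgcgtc
The *SPC25* promoter shows a pair of CCAAT boxes upstream of a CHR near the start, and *Prc1* and *Kif11* show 1 of each. *Hmmr* holds 5 CCAAT boxes in the printed stretch. The *AURKB* window has a CCAAT box and no TTTGAA. The annotated *AURKB* gene begins at position 8210600 on its strand, upstream of this window, so the bases before that position were not searched. The annotated *SPC25* gene also begins upstream of its window, at position 168913371, and the bases before that position were not searched either. The printed part of *MAD2L1* has the CHR alone. *Ccnb2*, the one member called higher in 4T1, also holds both motifs, with 3 CCAAT boxes and a CHR in the printed stretch. Its printed CHR lies upstream of the CCAAT boxes, while in *SPC25*, *Prc1*, *Hmmr* and *Kif11* the printed CHR lies downstream of them. The whole windows of *Ccnb2* and *SPC25* hold 2 CHR matches each, of which 1 is printed. The order given here covers the printed matches only. The falls were counted for members with and without the CHR letters in the searched window, with *AURKB* among those without, as a description without a test. In MDA-MB-231, 22 of 25 members with a CHR were called lower, with a median log2 fold change of -0.56, and 7 of 10 without one, with a median of -0.52. In 4T1 the numbers of members were 14 of 22 with a CHR (median -0.37) and 14 of 19 without one (median -0.30).

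Most members fell with ponatinib in both lines, with a lower median in MDA-MB-231. In bulk RNA, fewer cells in G2 or mitosis and less of these mRNAs per cell cannot be told apart. In MDA-MB-231, 35 of 42 members were lower at an adjusted p under 0.05 (quasi-likelihood test of edgeR, adjusted over all genes after Benjamini and Hochberg), against a background of 26.8% of all 14610 genes tested. *CDC25B* was the only member called higher (background 27.2%), and 6 members were not called. The median log2 fold change of the 42 members was -0.55, which is 68.3% of the DMSO level, and 25 members lay below -0.5 on the log2 scale. In 4T1, 28 of 41 members were lower (background 29.4% of 13286 genes), *Ccnb2* was the only one higher (background 29.5%), and 12 were not called. The median of the 41 mouse members was -0.34, or 79.2% of the DMSO level, and 11 lay below -0.5. Over all genes tested the median was 0.02 in the human line and -0.00 in the murine line. All 3 ponatinib libraries lay below all 3 DMSO libraries for 35 human members (background 29.8%) and 29 mouse members (background 30.8%), and all 3 lay above for 3 human members and 1 mouse member (backgrounds 30.6% and 32.6%). In both lines alike, 25 of the 41 shared members were called lower (61.0%), where 15.0% of 9843 genes tested in both lines were. Scaling by the library totals alone raised the median over all genes to 0.11 in the human and 0.12 in the murine line, and left 30 human and 20 mouse members lower and 17 lower in both lines. The human calls lost with this scaling were those of *BUB1B* (-0.34, edgeR adjusted p = 0.129), *TTK* (-0.19, 0.195), *CENPF* (-0.19, 0.0557), *NUSAP1* (-0.18, 0.159) and *FOXM1* (-0.14, 0.269). The mouse calls lost were those of *Cdc25b* (-0.07, edgeR adjusted p = 0.411), *Bub1b* (-0.05, 0.515), *Mad2l1* (-0.18, 0.0748), *Kif2c* (-0.18, 0.11), *Kif23* (-0.09, 0.353), *Ect2* (-0.22, 0.0626), *Ube2c* (-0.15, 0.162) and *Mki67* (-0.18, 0.0606). In MDA-MB-231 the count of members called higher was 3 with this scaling and also 3 with the replicate number as a block.

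**Figure D1:**
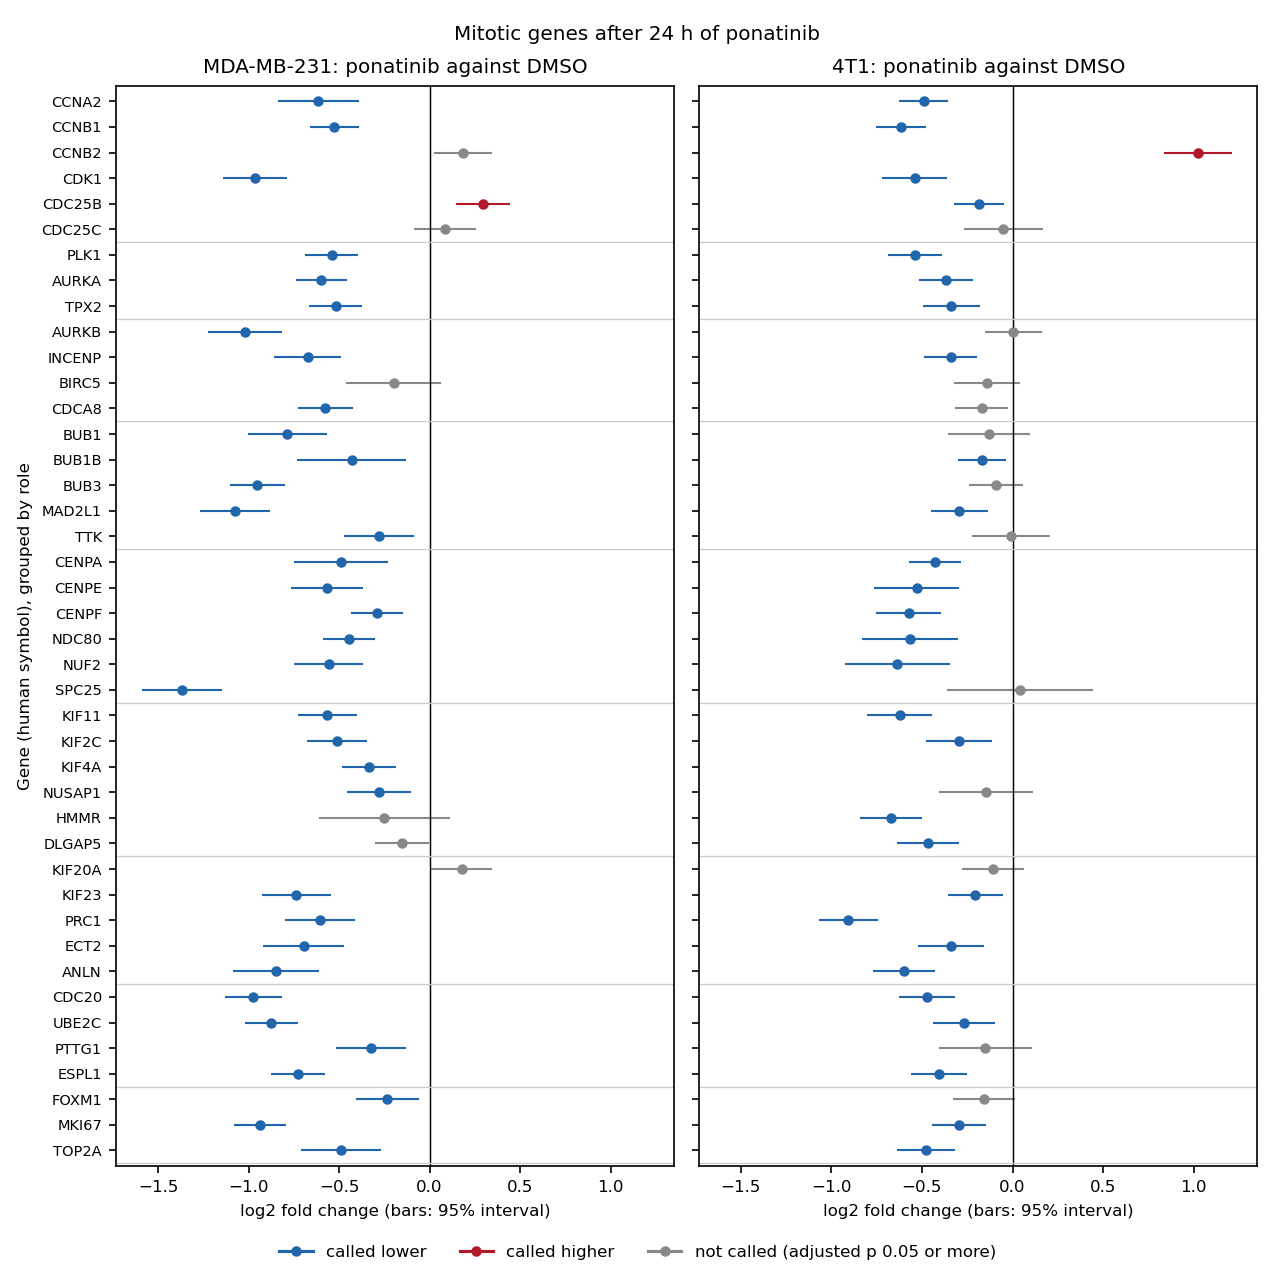
Log2 fold change of each member with ponatinib against DMSO for the human line on the left and the murine line on the right, in the order of the roles, with bars of the 95% interval and colours for the call. In MDA-MB-231, 35 of 42 points are called lower, while in 4T1 28 of 41 are, and cyclin B2 (*CCNB2*) is the point far to the right at 1.02.

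The cyclin-CDK1 switch split into members that fell and members that did not. *CDK1*, the kinase itself, stood at 114, 131 and 122 CPM in the 3 MDA-MB-231 DMSO libraries and at 56.4, 67.9 and 63.8 CPM in the ponatinib libraries. The groups did not overlap, and the log2 fold change was -0.96 (SE 0.09, edgeR adjusted p = 4.68e-06). In 4T1 it was -0.54 (SE 0.09, edgeR adjusted p = 0.000155). Cyclin A2 (*CCNA2*), the CDK1 and CDK2 partner of S phase and G2, fell by 0.61 and 0.49 on the log2 scale in MDA-MB-231 and 4T1, and cyclin B1 (*CCNB1*), the main mitotic cyclin, fell by 0.53 and 0.62.

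Cyclin B2 went the other way from cyclin B1. Mouse *Ccnb2* (ENSMUSG00000032218, chromosome 9 of GRCm39 from 70314966 to 70328874) stood at 31.3, 35.2 and 36.0 CPM with DMSO and at 61.5, 72.2 and 74.9 CPM with ponatinib. All treated libraries were above all controls, and the mean went from 34.2 ± 2.51 to 69.5 ± 7.08 CPM (SD, n = 3), a log2 fold change of 1.02 (SE 0.10, edgeR adjusted p = 4.58e-07). This call was made under every alternative run for 4T1. In MDA-MB-231 *CCNB2* read 69.6, 61.6 and 63.8 CPM with DMSO and 75.8, 75.6 and 70.0 CPM with ponatinib. The groups did not overlap, although the call was not made at a log2 fold change of 0.18 (edgeR adjusted p = 0.0781). It was made with the replicate block (adjusted p = 0.00577) and without DMSO replicate 1 (0.22, adjusted p = 0.0426). It was also made with total counts (0.28, edgeR adjusted p = 0.00997), with at least 10 counts in every library (0.21, 0.0427) and without the libraries numbered 1 (0.21, 0.0145). The pseudogene *Ccnb2-ps* held 1 to 10 counts per library where *Ccnb2* held 552 to 1398. Whether reads shared with this or other copies add to the mouse value was not tested.

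Of the phosphatases that activate CDK1, *CDC25B* was the member called higher in MDA-MB-231. It read 261, 231 and 232 CPM with DMSO and 302, 285 and 302 CPM with ponatinib, without overlap, and rose by a log2 fold change of 0.30 (SE 0.08, edgeR adjusted p = 0.00643). Mouse *Cdc25b* went from 103, 106 and 97.1 CPM to 89.0, 89.5 and 90.7 CPM, a log2 fold change of -0.19 (edgeR adjusted p = 0.0351). The mouse groups did not overlap either, but the call was lost without DMSO replicate 2 (-0.16, adjusted p = 0.117), ponatinib replicate 1 (-0.18, adjusted p = 0.0763), ponatinib replicate 2 (-0.18, adjusted p = 0.111) or ponatinib replicate 3 (-0.19, adjusted p = 0.0709). *CDC25C* was not called in MDA-MB-231, at 26.6, 26.2 and 25.9 CPM against 28.3, 28.4 and 26.9 CPM (0.09 on the log2 scale, edgeR adjusted p = 0.439). The values were ordered without overlap and lay close together. Mouse *Cdc25c*, at 22.6, 22.0 and 25.3 CPM against 20.2, 22.5 and 24.8 CPM, overlapped between the groups (-0.05, edgeR adjusted p = 0.719).

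Polo-like kinase 1 and the Aurora A module was called lower in both lines for all 3 genes, where 15.0% of the genes tested in both lines were. *PLK1*, which drives centrosome maturation and mitotic entry, changed by -0.54 on the log2 scale in MDA-MB-231 and in 4T1. In 4T1 its libraries read 89.3, 83.5 and 82.0 CPM with DMSO and 58.3, 55.8 and 61.4 CPM with ponatinib. These groups lay well apart (SE 0.08, edgeR adjusted p = 3.22e-05). *AURKA*, the centrosomal Aurora kinase, read 272, 273 and 283 CPM in MDA-MB-231 with DMSO and 172, 189 and 186 CPM with ponatinib. Its log2 fold change was -0.60 (SE 0.07, edgeR adjusted p = 3.16e-05) there and -0.37 in 4T1. *TPX2*, the spindle protein that activates Aurora A, fell by 0.52 and by 0.34 on the log2 scale in MDA-MB-231 and 4T1. The interval of the difference between the lines ran from -0.27 to 0.14 for *PLK1*, from -0.05 to 0.37 for *AURKA* and from -0.11 to 0.33 for *TPX2*.

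In the chromosomal passenger complex, Aurora B corrects faulty attachments and starts cytokinesis. Of its members, 3 of 4 fell in MDA-MB-231 (26.8% of all genes) and 1 of 4 in 4T1, a share near the 29.4% of all genes there. *AURKB*, the kinase of the complex, stood at 346, 285 and 275 CPM with DMSO in MDA-MB-231 and at 166, 142 and 138 CPM with ponatinib. Every treated library was below every control, with a log2 fold change of -1.02 (SE 0.10, edgeR adjusted p = 8.33e-06). Mouse *Aurkb* stood at 38.6, 40.0 and 39.7 CPM against 39.6, 39.4 and 39.5 CPM. The mouse groups overlapped, at 0.00 on the log2 scale (SE 0.08, edgeR adjusted p = 0.974). The scaffold *INCENP* fell in both lines, by 0.67 on the log2 scale in MDA-MB-231 and by 0.34 in 4T1. The mouse *Incenp* libraries read 98.3, 100 and 97.1 CPM with DMSO and 73.0, 76.9 and 83.4 CPM with ponatinib, without overlap (SE 0.08, edgeR adjusted p = 0.00128). *CDCA8* (borealin) fell by 0.57 on the log2 scale in MDA-MB-231. In 4T1 *Cdca8* read 63.6, 64.0 and 60.5 CPM and then 56.2, 55.3 and 55.6 CPM. Its groups did not overlap, yet the log2 fold change of -0.17 missed the threshold (edgeR adjusted p = 0.0612). It passed with the replicate block (adjusted p = 0.041) and with DESeq2 size factors in edgeR (adjusted p = 0.0499).

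*BIRC5* (survivin), the fourth subunit of the complex, was called in neither line. The MDA-MB-231 libraries read 36.5, 32.5 and 30.8 CPM with DMSO and 35.1, 23.9 and 27.9 CPM with ponatinib. They overlapped through ponatinib replicate 1, and the log2 fold change was -0.20 (edgeR adjusted p = 0.23). It was called with the replicate block (-0.21, adjusted p = 0.0294), without that library (-0.36, adjusted p = 0.0134) and without both libraries numbered 1 (-0.29, adjusted p = 0.0168). Mouse *Birc5* read 63.1, 66.4 and 67.3 CPM against 51.8, 60.6 and 66.2 CPM, which overlap (-0.14, edgeR adjusted p = 0.201).

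All 5 spindle checkpoint members were lower in MDA-MB-231 (26.8% of all genes) and 2 of 5 in 4T1, a share near the 29.4% of all genes there. *MAD2L1*, which encodes the MAD2 inhibitor of the anaphase-promoting complex (ENSG00000164109, chromosome 4 of hg38 from 120055623 to 120066858), stood at 91.3, 109 and 104 CPM with DMSO and at 42.5, 50.7 and 50.9 CPM with ponatinib in MDA-MB-231. These groups lay far apart, with a log2 fold change of -1.07 (SE 0.10, edgeR adjusted p = 3.60e-06). Mouse *Mad2l1* read 71.3, 73.3 and 81.6 CPM and 59.3, 63.0 and 62.4 CPM, also without overlap, at a log2 fold change of -0.29 (SE 0.08, edgeR adjusted p = 0.00548). *BUB3*, the adaptor of the BUB kinases at the kinetochore, went from 298, 319 and 310 CPM to 148, 162 and 169 CPM in MDA-MB-231. Its log2 fold change was -0.95 (SE 0.08, edgeR adjusted p = 1.37e-06). In 4T1 *Bub3* stayed at 194, 167 and 177 CPM against 170, 162 and 173 CPM, with overlap (-0.09, edgeR adjusted p = 0.326).

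*BUB1*, the kinase that marks centromeres, fell by 0.79 on the log2 scale in MDA-MB-231. In 4T1 its libraries overlapped, at 34.2, 37.7 and 44.5 CPM against 30.9, 40.0 and 35.7 CPM (-0.13, edgeR adjusted p = 0.356). *BUB1B* (BUBR1) fell by 0.43 on the log2 scale in MDA-MB-231 and by 0.17 in 4T1, both close to the threshold. The human call was lost without DMSO replicate 2 (-0.36, adjusted p = 0.113), DMSO replicate 3 (-0.35, adjusted p = 0.121), ponatinib replicate 1 (-0.32, adjusted p = 0.0679) or ponatinib replicate 2 (-0.47, adjusted p = 0.0611). The mouse call was lost without each single library other than 4T1 DMSO replicate 1 (adjusted p of 0.0632 to 0.137), with no filter (adjusted p = 0.105) and with at least 10 counts in every library (adjusted p = 0.06). *TTK* (MPS1), the upstream checkpoint kinase, was lower in MDA-MB-231 at -0.28 (edgeR adjusted p = 0.0301), and the only single library whose loss kept the call was DMSO replicate 1, with values of -0.25 (adjusted p = 0.103) to -0.31 (adjusted p = 0.0509) otherwise. With DESeq2 the human call was lost as well (-0.30, adjusted p = 0.0635). Mouse *Ttk* read 18.8, 17.9 and 20.0 CPM against 17.2, 19.4 and 19.8 CPM. The groups overlapped (-0.01, edgeR adjusted p = 0.964).

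At the centromere and kinetochore, *SPC25* had the largest fall of all members. This subunit of the NDC80 complex, which binds microtubules (ENSG00000152253, chromosome 2 of hg38 from 168834132 to 168913371), stood at 24.3, 24.0 and 27.6 CPM in the MDA-MB-231 DMSO libraries and at 9.40, 10.4 and 9.64 CPM with ponatinib. The mean went from 25.3 ± 1.99 to 9.81 ± 0.514 CPM (SD, n = 3), a log2 fold change of -1.37 (SE 0.11, edgeR adjusted p = 1.56e-06). Mouse *Spc25* was the least even member, at 7.60, 14.1 and 14.0 CPM with DMSO and 9.61, 12.5 and 14.6 CPM with ponatinib. Both libraries numbered 1 were the lowest of their group, and the log2 fold change was 0.04 (SE 0.21, edgeR adjusted p = 0.88).

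The partners of SPC25 in the same complex fell in both lines. *NDC80* changed by -0.45 on the log2 scale in MDA-MB-231 and by -0.57 in 4T1, and *NUF2* by -0.56 and -0.64. The *Nuf2* libraries of 4T1 read 20.3, 25.8 and 30.8 CPM with DMSO and 13.9, 17.7 and 17.8 CPM with ponatinib. They did not overlap in spite of the wide spread with DMSO (SE 0.15, edgeR adjusted p = 0.0019). The centromeric histone gene *CENPA* fell by 0.49 and 0.43 on the log2 scale, the kinetochore motor *CENPE* by 0.57 and 0.53, and the kinetochore protein *CENPF* by 0.29 and 0.57.

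Among the spindle genes, the motor *KIF11* (Eg5), which separates the poles, changed most in MDA-MB-231. It stood at 71.9, 78.0 and 77.2 CPM with DMSO and at 47.4, 53.8 and 52.2 CPM with ponatinib. The groups lay apart, at -0.57 on the log2 scale (SE 0.08, edgeR adjusted p = 0.000142), and 4T1 had -0.62. The depolymerizing kinesin *KIF2C* fell by 0.51 and 0.30 on the log2 scale, and the mouse call was lost without 4T1 ponatinib replicate 2 (-0.25, adjusted p = 0.0748). The chromokinesin *KIF4A* fell by 0.34 on the log2 scale in MDA-MB-231. The mouse gene *Kif4*, which carries another symbol and is not a member, changed by -0.40 (edgeR adjusted p = 0.00669). *HMMR*, a spindle assembly factor, was weakly expressed in MDA-MB-231, at 5.04, 5.96 and 7.55 CPM against 4.73, 5.16 and 5.69 CPM. These overlapped and were not called (-0.25, SE 0.18, edgeR adjusted p = 0.273). Mouse *Hmmr* read 46.9, 51.7 and 53.8 CPM against 30.8, 32.5 and 32.3 CPM. It had the largest fall of the spindle genes in 4T1, at -0.67 (SE 0.09, edgeR adjusted p = 1.22e-05).

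*DLGAP5* (HURP), which bundles microtubules near the chromosomes, read 107, 117 and 111 CPM in MDA-MB-231 with DMSO and 96.9, 106 and 99.2 CPM with ponatinib. The groups lay next to each other without overlap, and the gene was not called (-0.15, edgeR adjusted p = 0.106) except with the replicate block (adjusted p = 0.00451) and without the libraries numbered 1 (adjusted p = 0.0264). In 4T1 it went from 57.4, 64.7 and 68.4 CPM to 44.5, 44.9 and 48.6 CPM, a log2 fold change of -0.47 (SE 0.09, edgeR adjusted p = 0.000343). *NUSAP1*, a spindle microtubule binder, fell by 0.28 on the log2 scale in MDA-MB-231 (edgeR adjusted p = 0.0204), a call that was lost at -0.26 without DMSO replicate 2, DMSO replicate 3 or ponatinib replicate 2 (adjusted p = 0.0728, 0.0743 and 0.0831). Mouse *Nusap1* read 27.8, 33.5 and 33.6 CPM against 22.9, 34.1 and 28.8 CPM. The mouse values overlapped (-0.15, edgeR adjusted p = 0.356).

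The cytokinesis genes held the largest fall of 4T1. *Prc1*, which bundles the antiparallel microtubules of the midzone (ENSMUSG00000038943, chromosome 7 of GRCm39 from 79944168 to 79966011), stood at 85.9, 93.8 and 96.1 CPM with DMSO and at 48.1, 52.8 and 46.3 CPM with ponatinib. The mean went from 91.9 ± 5.38 to 49.1 ± 3.38 CPM (SD, n = 3), a log2 fold change of -0.91 (SE 0.08, edgeR adjusted p = 3.67e-07). In MDA-MB-231 *PRC1* fell by 0.60 on the log2 scale. *ANLN* (anillin), the scaffold of the contractile ring, led this role in MDA-MB-231, with 146, 182 and 175 CPM against 76.1, 99.1 and 104 CPM. Both libraries numbered 1 were the lowest of their group, and the log2 fold change was -0.85 (SE 0.12, edgeR adjusted p = 0.00011). Mouse *Anln* fell by 0.60 on the log2 scale. *ECT2*, the exchange factor that activates RhoA at the furrow, fell by 0.69 and 0.34 on the log2 scale in MDA-MB-231 and 4T1.

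The midzone kinesin *KIF23* fell by 0.74 on the log2 scale in MDA-MB-231 and by 0.20 in 4T1, where the call was made with all libraries (edgeR adjusted p = 0.0334) and without DMSO replicate 1 but not without any other single library (adjusted p of 0.0669 to 0.112). With all libraries and no filter the mouse call was lost (-0.20, edgeR adjusted p = 0.0668). *KIF20A*, the kinesin that carries the passenger complex to the midzone, was called in neither line. Its MDA-MB-231 libraries read 89.1, 95.3 and 99.8 CPM with DMSO and 97.0, 110 and 115 CPM with ponatinib. They overlapped at 0.18 on the log2 scale (edgeR adjusted p = 0.103), and the gene was called higher with the replicate block (adjusted p = 0.00209) and without ponatinib replicate 1 (0.24, adjusted p = 0.0258). The same call was made with total counts (0.27, edgeR adjusted p = 0.0387) and without the libraries numbered 1 (0.20, 0.00809). Mouse *Kif20a* read 57.2, 54.5 and 58.5 CPM against 52.4, 47.9 and 57.8 CPM. These groups overlapped as well (-0.11, edgeR adjusted p = 0.304). Reads of *KIF20A* cannot be told apart from those of the overlapping genes *BRD8* and *CDC23*, since the sources do not say whether counting used strand.

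All 4 anaphase genes fell in MDA-MB-231 (26.8% of all genes) and 3 of 4 in 4T1 (29.4% of all genes). *CDC20*, the activator of the anaphase-promoting complex, went from 610, 552 and 537 CPM to 306, 284 and 277 CPM in MDA-MB-231. The log2 fold change was -0.97 (SE 0.08, edgeR adjusted p = 1.47e-06). In 4T1 it went from 206, 184 and 179 CPM to 141, 127 and 142 CPM, again without overlap, at -0.47 (SE 0.08, edgeR adjusted p = 0.000124). *UBE2C*, the ubiquitin-conjugating enzyme of that complex, fell by 0.87 and 0.27 on the log2 scale, and the mouse call was lost without 4T1 DMSO replicate 3 (-0.24, adjusted p = 0.0565) or ponatinib replicate 1 (-0.17, adjusted p = 0.0854). *ESPL1* (separase), which cuts cohesin, fell by 0.73 and 0.41 on the log2 scale. Securin (*PTTG1*), its inhibitor, fell by 0.33 on the log2 scale in MDA-MB-231, and not without ponatinib replicate 3 (-0.24, adjusted p = 0.0631). Mouse *Pttg1* read 25.3, 27.3 and 30.1 CPM against 20.2, 24.7 and 29.6 CPM. It overlapped and was not called (-0.15, edgeR adjusted p = 0.338).

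Among the genes of transcription and chromosome structure, *MKI67* (Ki-67), the coat protein of mitotic chromosomes used as a proliferation marker, stood at 399, 382 and 375 CPM with DMSO and at 211, 194 and 198 CPM with ponatinib in MDA-MB-231. It fell without overlap, at -0.94 on the log2 scale (SE 0.07, edgeR adjusted p = 1.04e-06), and by 0.30 in 4T1. *TOP2A*, the topoisomerase that untangles sister chromatids, changed by -0.49 in MDA-MB-231 and -0.48 in 4T1. The *Top2a* libraries of 4T1 read 237, 283 and 273 CPM and 181, 196 and 193 CPM, without overlap (SE 0.08, edgeR adjusted p = 0.00015). *FOXM1*, the transcription factor that activates G2/M promoters together with MuvB, changed least of the 3. It was lower in MDA-MB-231 at -0.23 (edgeR adjusted p = 0.0429), and this call was lost without DMSO replicate 2 (-0.27, adjusted p = 0.0568), DMSO replicate 3 (-0.19, adjusted p = 0.159), ponatinib replicate 1 (-0.17, adjusted p = 0.116) or ponatinib replicate 2 (-0.23, adjusted p = 0.113), and with at least 10 counts in every library (-0.21, adjusted p = 0.0692). Mouse *Foxm1* read 135, 125 and 106 CPM against 112, 105 and 112 CPM. The groups overlapped through DMSO replicate 3 (-0.16, edgeR adjusted p = 0.135), and the gene was called without it (-0.25, adjusted p = 0.0216).

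The level of the members as a whole was close among the libraries of a group. Summed over the members, the level was 6582, 6628 and 6583 CPM in the MDA-MB-231 DMSO libraries and 4370, 4456 and 4528 CPM with ponatinib. In 4T1 it was 3730, 3943 and 3952 CPM and then 2922, 3069 and 3135 CPM. The sums of the groups lay far apart in both lines. In all 4 groups the library numbered 1 lay below its group mean, by a member median of 0.05 to 0.08 on the log2 scale, where the median over all genes was -0.01 to 0.01. In both MDA-MB-231 libraries numbered 1 the deviation was more negative in longer transcripts, with a Spearman correlation with exon length of -0.44 and -0.48 over the 42 members and of -0.27 and -0.31 over all genes (a description across genes, which share the library). Without the libraries numbered 1, an alternative chosen after seeing the data, 37 human and 27 mouse members were lower.

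**Figure D2:**
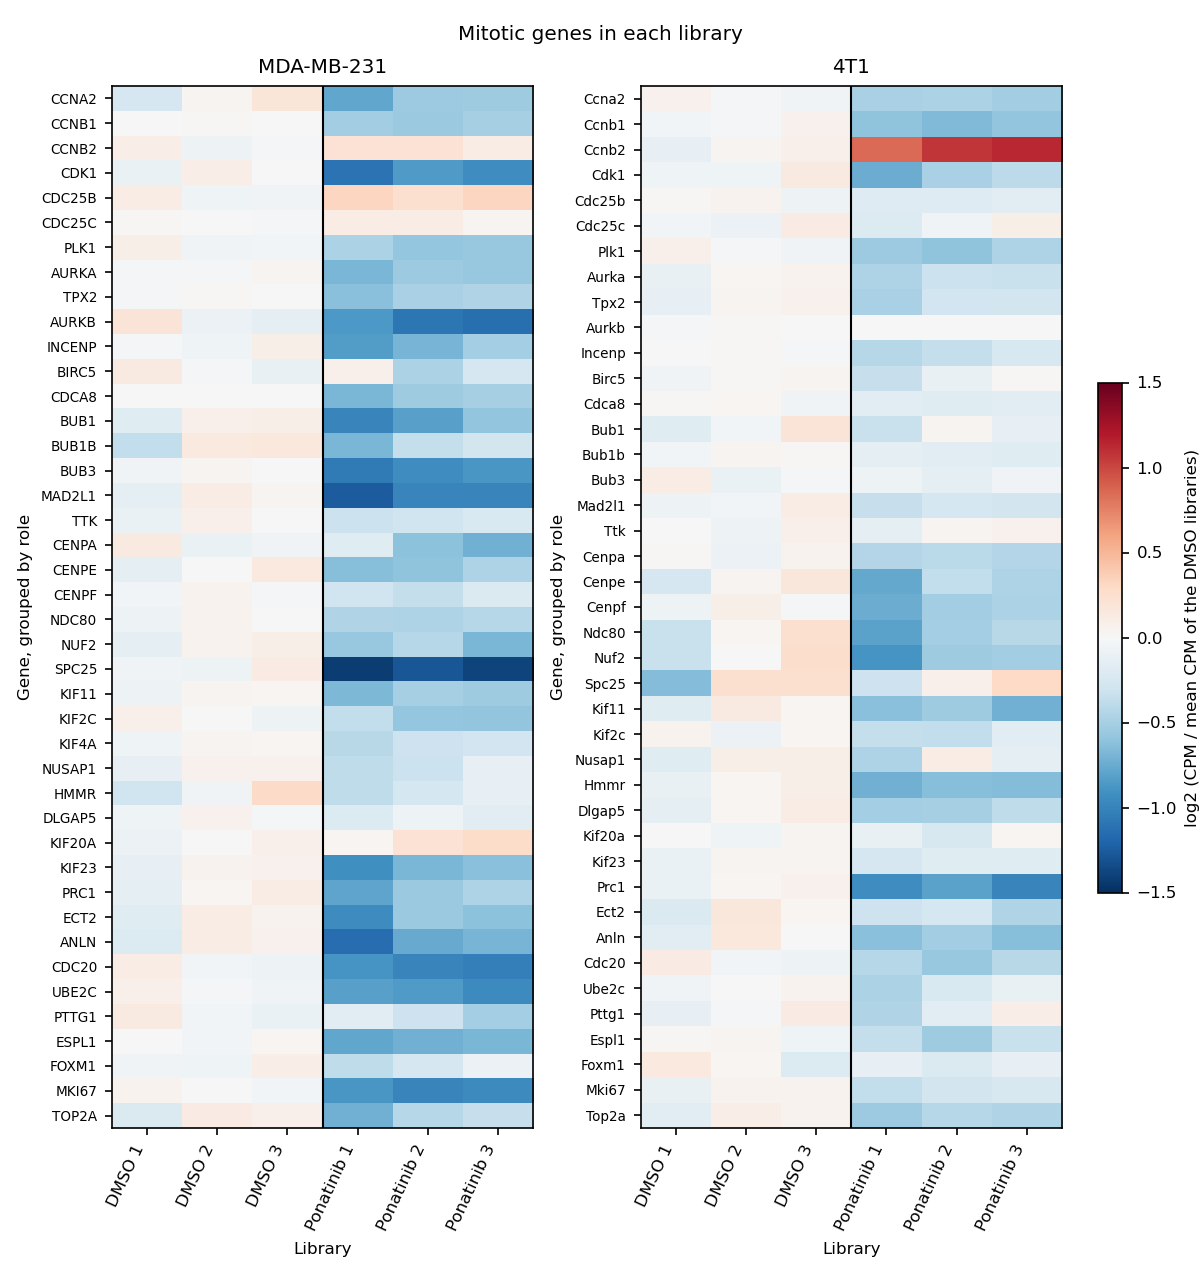
Level of each member in each library, as log2 of its CPM over the mean CPM of the 3 DMSO libraries of the same line (colour scale from -1.5 to 1.5), with the human line on the left and the murine line on the right. Most rows turn blue in all 3 ponatinib columns, *SPC25* most of all in MDA-MB-231, while *Ccnb2* in 4T1 turns red at 61.5, 72.2 and 74.9 CPM against 31.3, 35.2 and 36.0 CPM.

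The response differed between the lines for 17 of the 41 shared members (edgeR test of the line by treatment interaction, over 12488 genes that share a symbol, of which 41.9% were called). The share of members called is near that of all genes. The 4T1 response was above that of MDA-MB-231 for 11 members (background 20.0%) and below it for 6 (background 21.9%). The largest of these differences was that of *SPC25*, 1.34 on the log2 scale (SE 0.27, edgeR adjusted p = 0.000422). It was followed by *AURKB* at 0.95 (SE 0.13, adjusted p = 9.61e-06 by edgeR) and *BUB3* at 0.79 (SE 0.11, adjusted p = 9.61e-06 by edgeR). These 3 genes fell in the human line and were not called in 4T1. *CCNB2* differed by 0.77 through its rise in 4T1. *MAD2L1* (0.71), *BUB1* (0.58), *MKI67* (0.57), *UBE2C* (0.54), *KIF23* (0.46), *CDC20* (0.43) and *CDCA8* (0.33) made up the rest of the 11. On the other side stood *CDC25B* at -0.56 (SE 0.10, edgeR adjusted p = 0.00023), which moved in opposite directions in the lines, *HMMR* at -0.49 (SE 0.19, edgeR adjusted p = 0.0411) and *DLGAP5* at -0.38 (SE 0.12, edgeR adjusted p = 0.0129). *PRC1* (-0.37), *CENPF* (-0.36) and *KIF20A* (-0.36) completed the 6. The *HMMR* call was lost with TMM within each line (-0.44, adjusted p = 0.0639), with total counts (-0.39, adjusted p = 0.137), with the libraries numbered 1 left out (-0.45, adjusted p = 0.0589) and without any single library other than MDA-MB-231 DMSO replicate 3, MDA-MB-231 ponatinib replicate 1 or 4T1 DMSO replicate 1. *PRC1* (adjusted p = 0.0572 and 0.164) and *KIF20A* (0.0554 and 0.151) were also lost with TMM within each line and with total counts, and *DLGAP5* (0.0861) and *CENPF* (0.117) with total counts. Each of these calls was lost as well without 4T1 DMSO replicate 2, DMSO replicate 3 or ponatinib replicate 1, among other single libraries. The adjusted p then reached 0.145 for *PRC1*, 0.175 for *KIF20A*, 0.0909 for *DLGAP5* and 0.142 for *CENPF*.

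Both counts moved with the scaling. With TMM within each line the counts were 14 above and 3 below, and with total counts 14 above and 1 below, *CDC25B*. With the replicate block 15 were above and 6 below, the 4 gained being *CDK1*, *ECT2* (0.29, adjusted p = 0.0146), *ESPL1* (0.25, adjusted p = 0.0278) and *INCENP* (0.26, adjusted p = 0.0163). The count below was 3 without MDA-MB-231 DMSO replicate 1 or ponatinib replicate 2, 2 without MDA-MB-231 ponatinib replicate 3 or 4T1 ponatinib replicate 2, and 1 without 4T1 DMSO replicate 2, 4T1 DMSO replicate 3 or 4T1 ponatinib replicate 1. The joint fit has its own scaling, so a difference is not exactly that of the separate fold changes, and the median difference over all genes was -0.04. For the other 24 members no difference was called, which does not show that they responded alike. *CDK1* was just outside the threshold at 0.35 (95% interval 0.08 to 0.62, edgeR adjusted p = 0.0504) and passed it with the block (adjusted p = 0.00109) and with every other alternative that kept all libraries (adjusted p of 0.024 to 0.0413). *CCNB1* differed by -0.16 (interval -0.35 to 0.03) and *PLK1* by -0.07 (interval -0.27 to 0.14). Across the 41 members the fold changes of the lines had a Pearson correlation of 0.25 and a Spearman correlation of 0.10, beside 0.28 and 0.30 over the 9843 genes tested in both lines, as a description of genes that share their libraries.

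**Figure D3:**
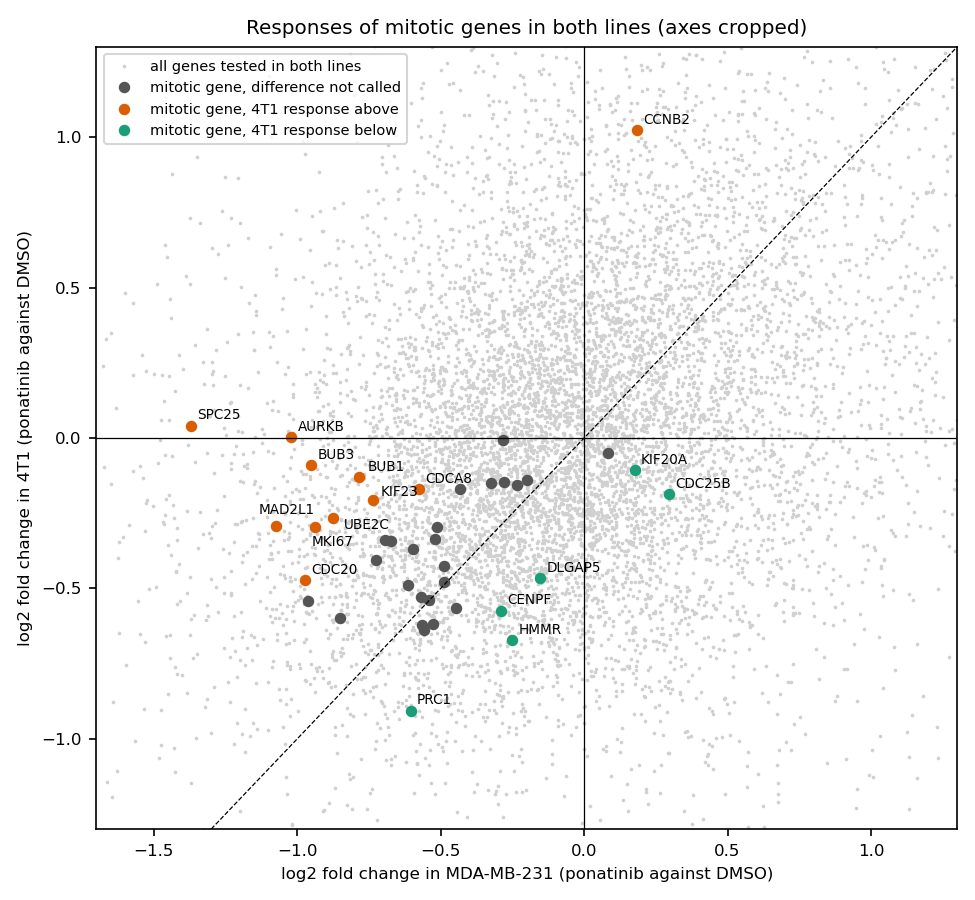
Log2 fold change in 4T1 (vertical) against MDA-MB-231 (horizontal) for the 41 shared members, coloured by the test of the difference, over 9843 genes tested in both lines (grey, of which 956 lie outside the axes). The dashed line marks equal responses, *SPC25*, *AURKB* and *BUB3* lie far left near 0 on the 4T1 axis, and *CCNB2* lies alone at the top with 1.02 in 4T1.

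Compared per kb of exon so that genes of different length can be set side by side, *CDC20* and *UBE2C* were the highest members in each line. With DMSO, *CDC20* led MDA-MB-231 at 282 ± 19.0 CPM per kb (SD, n = 3) and *UBE2C* came next at 269 ± 12.6, a difference within their spread. *AURKB* (135 ± 17.2), *CCNB1* (132 ± 1.45) and *TPX2* (116 ± 1.43) followed, of which *AURKB* and *CCNB1* cannot be separated. In 4T1 *Cdc20* led at 97.2 CPM per kb, followed by *Ube2c* at 58.7 and *Ccnb1* at 50.5. With ponatinib, *UBE2C* and *CDC20* stood at 147 ± 7.43 and 143 ± 7.46 CPM per kb in MDA-MB-231. The length used is that of all annotated exons of a gene joined, 14614 bases for mouse *Bub3*, and not that of the transcript expressed. The order of the members per kb therefore depends on the annotation. Levels per kb are not compared between the lines, since the annotations of the species differ.

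Set against each other per kb of exon, cyclin B1 lost ground to cyclin B2 in every ponatinib library. In MDA-MB-231 the ratio of cyclin B1 to cyclin B2 per kb was 5.19, 5.97 and 5.64 with DMSO and 3.33, 3.25 and 3.67 with ponatinib. In 4T1 the ratio was 3.49, 3.12 and 3.26 with DMSO and 1.20, 0.982 and 0.995 with ponatinib. The ratios of treated and control libraries did not overlap in either line. The order of the pair was kept in MDA-MB-231, while in 4T1 with ponatinib the cyclins B stood at near equal values per kb. The exon lengths used were 2433 and 2753 bases for human *CCNB1* and *CCNB2*, and 4291 and 2221 for the mouse genes. The size of each ratio depends on these annotated lengths, which cancel when libraries of the same line are compared.

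**Figure D4:**
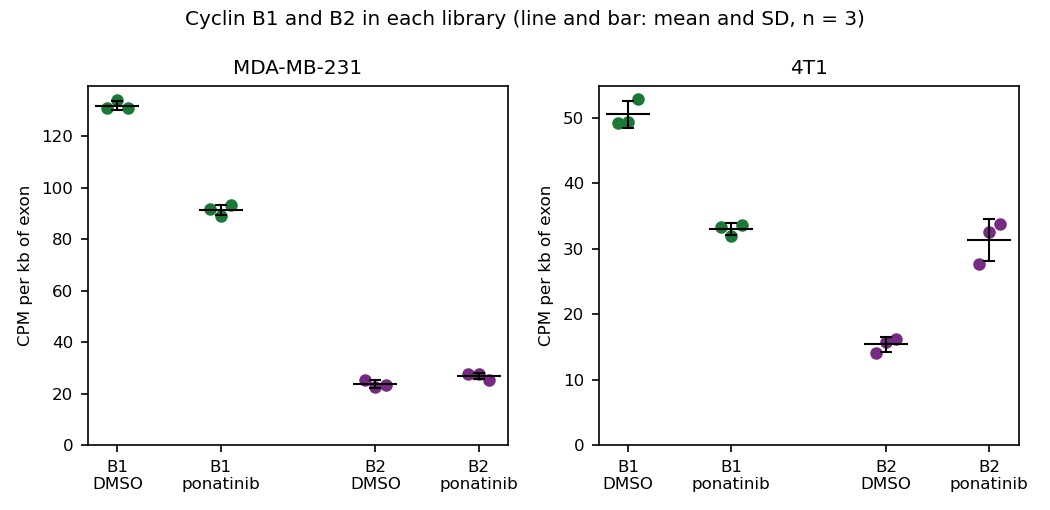
Level of cyclin B1 and cyclin B2 mRNA per library, in CPM per kb of exon, for MDA-MB-231 on the left and 4T1 on the right, with the mean and SD of the 3 libraries of each group. Cyclin B1 falls in both lines, and cyclin B2 in 4T1 rises from 14.1, 15.8 and 16.2 to 27.7, 32.5 and 33.7 CPM per kb, near the value per kb of cyclin B1 with ponatinib.

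Most other genes of the same processes also fell. For the counts of this and the next lists, the background over all genes was 26.8% falling and 27.2% rising for the human line, and 29.4% falling and 29.5% rising for the murine line. Of 67 other mitotic genes, a list written from general knowledge, 50 of 67 tested fell in MDA-MB-231 and 1, *NEK2*, rose, with a median log2 fold change of -0.61. *SKA3* (-1.80) of the SKA complex, the centromere protein gene *CENPO* (-1.45), *MASTL* (-1.24), the Greatwall kinase that restrains a phosphatase of mitotic substrates, and *HASPIN* (-1.23), the histone kinase that recruits Aurora B, had the largest falls. The call of *NEK2* at 0.20 (edgeR adjusted p = 0.0485) was lost with each of the 6 libraries left out in turn. In 4T1, 42 of 65 were lower and 6 higher (*Ncaph2*, *Cdca3*, *Knstrn*, *Melk*, *Cenpm* and *Psrc1*), with a median of -0.31, and 26 were lower with total counts. *Knl1* (-1.18), the platform of the kinetochore, *Ncapg2* (-0.88) of condensin II, *G2e3* (-0.86) and *Arhgap11a* (-0.84) fell most.

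Genes of G1/S and DNA replication had a lower median than the mitotic genes in MDA-MB-231, a description without a test. All 43 tested were lower, with a median of -1.09. Those of at least 10 CPM were led by *RRM2* (-2.99), a subunit of ribonucleotide reductase, *MCM10* (-1.98), *FEN1* (-1.77) and *CDC6* (-1.68). In 4T1, 32 of 44 were lower and 4 higher (8 higher with total counts and 7 with the replicate block), with a median of -0.51. *Cdc6* (-1.43), *Rrm2* (-1.14) and *Mcm3* (-0.87) were among those of at least 10 CPM that fell most. The CHR letters stood in 5.26% of the human and 9.09% of the mouse promoters of this list, against 58.2% and 41.5% of those of the other mitotic genes.

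Several regulators of these promoters fell. All 7 RB and E2F factor genes tested fell in MDA-MB-231, with *E2F7* (-1.38), *E2F1* (-1.25), *E2F8* (-1.13) and *E2F3* (-1.02) in front, and 4 of 7 in 4T1, with *E2f7* at -0.85 and *E2f3* at -0.57. This list shares genes with that of G1/S and DNA replication, *E2F1* and *E2F8* among them, which are counted in both. Of the DREAM, MuvB and NF-Y genes, 7 of 15 fell and 2 rose in MDA-MB-231. *MYBL2* (-1.47), the B-Myb partner of MuvB, *TFDP1* (-1.08) and *RBL1* (-0.84) fell, and *RBL2* (1.13), which encodes the p130 pocket protein of DREAM, rose. In 4T1, 10 of 14 were lower and 3 higher, with *Lin52* (-0.77), *Nfyb* (-0.75) and *Rbl1* (-0.67) lower and *Tfdp2* (0.65) higher.

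In the G2 brake and checkpoint list 5 of 9 were lower and 1 higher in each line. *CDC25A* (-2.32), *CLSPN* (-1.78) and *PKMYT1* (-1.36), the kinase that holds CDK1 inactive, fell in MDA-MB-231. In 4T1 *Wee1* (-0.79), the other inhibitory kinase of CDK1, *Atr* (-0.56) and *Cdc25a* (-0.56) fell and *Chek2* (0.56) rose. Of the subunits and regulators of the anaphase-promoting complex, 7 of 20 fell (35.0%, against 26.8% of all genes) and 1 rose in the human line, while in the murine line 4 of 20 fell (background 29.4%) and 6 of 20 rose (background 29.5%), which is near the background. The enzyme *UBE2S* (-1.16), *TRIP13* (-1.03) and the inhibitor *FBXO5* (-0.86) fell and *ANAPC16* (0.77) rose in MDA-MB-231, and *Anapc13* (1.05) and *Anapc11* (0.68) rose and *Cdc27* (-0.73) and *Trip13* (-0.68) fell in 4T1. The cohesin list had 4 of 11 lower in MDA-MB-231 (36.4%, against 26.8% of all genes), with *ESCO2* at -1.62, and 9 of 11 in 4T1 (81.8%, against 29.4%), with *Nipbl* at -0.58 and *Wapl* at -0.56.

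**Figure D5:**
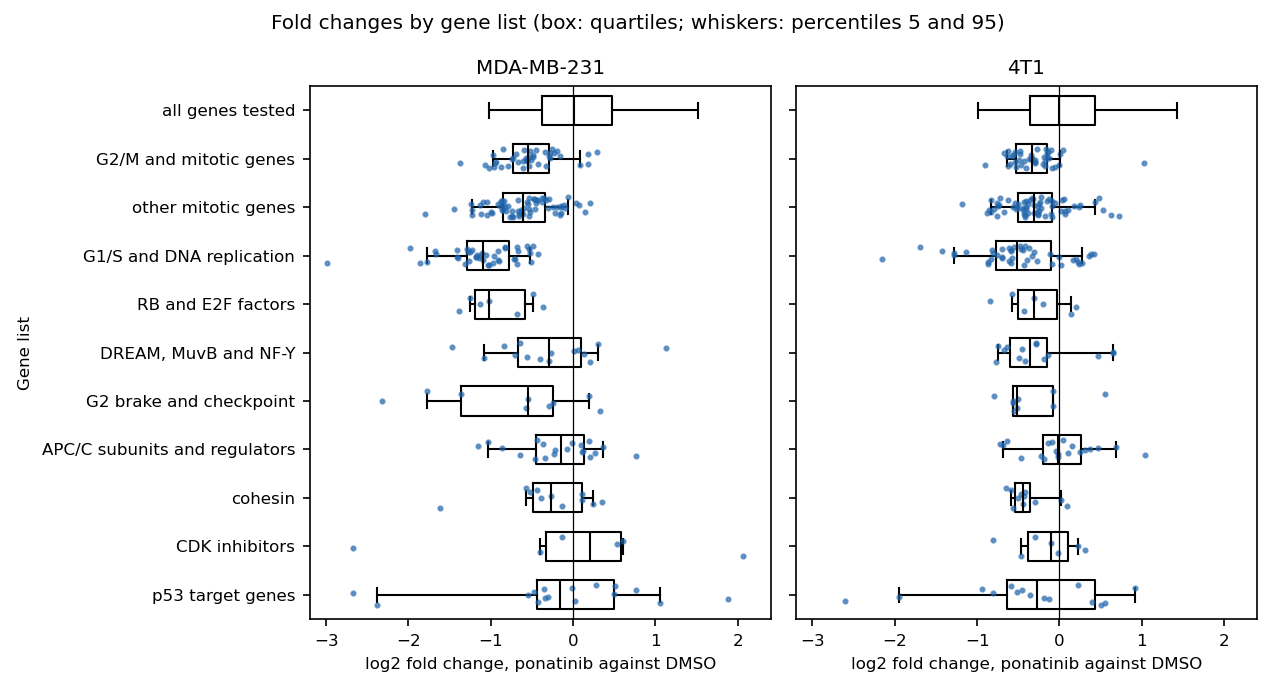
Log2 fold changes with ponatinib against DMSO for all genes tested and for each gene list, for MDA-MB-231 on the left and 4T1 on the right. Boxes give the quartiles, whiskers the percentiles 5 and 95, and points the single genes. The members have medians of -0.55 and -0.34, and the G1/S list of -1.09 and -0.51.

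The inhibitors of cyclin-dependent kinases did not move as 1 group. *CDKN1A* (p21) fell from 246 ± 4.93 to 38.5 ± 2.41 CPM (SD, n = 3) in MDA-MB-231, at -2.67 on the log2 scale (edgeR adjusted p = 1.08e-09), and from 163 ± 19.1 to 93.1 ± 3.73 CPM in 4T1, at -0.81 (edgeR adjusted p = 1.82e-06). This response differed between the lines by 1.79 (edgeR adjusted p = 1.20e-09). *CDKN1B* (p27) rose in MDA-MB-231, by 0.61 on the log2 scale, while 4T1 had -0.30 (edgeR adjusted p = 0.012), a difference of -0.98 (edgeR adjusted p = 3.81e-05). *CDKN1C* (p57) rose from 10.5 ± 2.65 to 44.0 ± 7.63 CPM and *CDKN2C* (p18) from 66.9 ± 6.54 to 96.7 ± 3.47 CPM in MDA-MB-231. *CDKN2D* (p19) fell in both lines, by 0.40 and 0.46 on the log2 scale. *Cdkn2a*, the Ink4a and Arf gene, rose by 0.32 in 4T1, and *CDKN3* was called in neither line. Of the p53 target genes, a list that also holds *CDKN1A*, 7 of 16 fell (43.8%, against 26.8% of all genes) and 5 rose (31.2%, against 27.2%) in the human line, and 9 of 16 fell (56.2%, against 29.4%) and 6 rose (37.5%, against 29.5%) in the murine line. *AEN* fell by 2.38 on the log2 scale in MDA-MB-231, and *Plk3* by 1.95 in 4T1.

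Markers of the lines and of other cells were read beside these results. The summed epithelial markers ran from 1661 to 2034 CPM with DMSO and from 2292 to 2858 CPM with ponatinib in MDA-MB-231, and from 7883 to 9078 and from 8025 to 8837 CPM in 4T1. The summed mesenchymal markers ran from 1344 to 1530 and from 947 to 1125 CPM in MDA-MB-231, and from 6669 to 7636 and from 4746 to 5181 CPM in 4T1. In MDA-MB-231 mean *VIM* went from 1288 to 817 CPM and *ZEB1* from 19.8 to 14.0, while *FN1* went from 123 to 207. In 4T1 mean *Fn1* went from 3414 to 970 CPM and *Zeb1* from 93.2 to 72.6, while *Vim* went from 3257 to 3605 and *Sparc* from 250 to 355. In MDA-MB-231, 3 of 5 epithelial markers tested were higher and 2 of 4 mesenchymal markers lower with 1 higher, and in 4T1, 2 of 6 epithelial markers were lower with 1 higher and 2 of 4 mesenchymal markers lower with 1 higher. The epithelial cadherin *CDH1* was at 0 CPM in the MDA-MB-231 DMSO mean, as is known of this line. *PTPRC*, which defines leukocytes, and *PECAM1*, which defines endothelium, were at 0 in every MDA-MB-231 library, and *Cd3e* and *Itgam* were at 0 in every 4T1 library. The leukocyte sum of 4T1, 223 to 249 CPM with DMSO and 137 to 155 CPM with ponatinib, was almost wholly *Cd14*. The part of these marker changes, which differ in direction between single markers, in the results for the members was not tested.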

How the data were processed

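RNA was sequenced from MDA-MB-231 and from 4T1 cells after 24 h of ponatinib or DMSO, with 3 libraries per group. The authors aligned clean reads to hg38 or GRCm39 with HISAT2 and deposited raw counts per gene from HTSeq, which are whole numbers without normalization. Tool versions, annotation and strand setting are not given in the sources used here. Identifiers were matched to GENCODE v44 (81.9% of the human ones, with 99.3% of the counts) and vM39 (91.1% of the mouse ones, with 99.8% of the counts). Without a known strand setting, reads of members cannot be told apart from those of overlapping genes, such as *CCNA2* and *EXOSC9*, *FOXM1* and *RHNO1*, or mouse *Spc25* and *Nostrin*.

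The quasi-likelihood test of edgeR 4.0.16 (in R 4.3.3) was run on the counts after its filterByExpr filter and TMM scaling, p-values were adjusted after Benjamini and Hochberg over all genes tested, and calls were made at an adjusted p under 0.05, in each line apart and, for the difference between the lines, as the line by treatment interaction over 12488 genes of the same symbol. CPM values were computed with TMM-scaled totals, and a standard error is the log2 fold change divided by the root of its F statistic, from which 95% intervals were taken with normal quantiles. Promoter letters were searched in Python 3 with pandas, and plots were drawn with matplotlib. On simulated data with 200 changed genes, the edgeR fits in each line and of the interaction were tested, and no other step was.

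The members, the gene lists and the tests were chosen with earlier results of these data known, so the lists are descriptions and no set test was made. Named by rule were the called member with the largest change in each line and role, the members not called or called against the majority, the 3 largest differences between the lines in each direction, and of each other list up to 4 called genes of at least 10 CPM with the largest change. *NEK2*, *Kif4*, the 6 other mitotic genes higher in 4T1 and the printed *Ccnb2* promoter were added after their values were seen. Some genes that the rule names are not reported here.

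Whether replicate numbers pair the samples was checked from how same-numbered libraries deviate from their group means. These deviations correlated at 0.345, 0.111 and 0.133 for the human and at 0.213, 0.119 and 0.115 for the murine line. All exceed 0.1, but no source says what a number marks, so whether the libraries are paired stayed unsettled. The main fits had no term for the replicate number, and the replicate block was run as an alternative. Another number correlated higher for MDA-MB-231 replicate 2 (0.163) and 4T1 replicate 3 (0.119). No libraries were copies of each other, with a chi-square per gene between replicates of 2.86 to 14.7. Depth was 15012884 counts or more per library, and the biological coefficient of variation common to all genes was 0.099 (human) and 0.0869 (murine). Alternatives were DESeq2 1.42.0, its size factors in edgeR, total counts, TMM within each line, a filter of at least 10 counts per library or none, the replicate block, each library left out, and, chosen after seeing the data, the libraries numbered 1 left out together.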

Additional observations from a re-analysis of the deposited data

Results flagged for a closer look

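The response to ponatinib differed between the lines for 17 of 41 members in the edgeR test of the interaction of line and treatment. This share is near the 41.9% called among all 12488 genes tested. Each value is the log2 fold change of 4T1 minus that of MDA-MB-231. Differences above 0, with a smaller fall or a rise in 4T1, were found for *SPC25* (1.34), *AURKB* (0.95), *BUB3* (0.79), *CCNB2* (0.77), *MAD2L1* (0.71), *BUB1* (0.58), *MKI67* (0.57), *UBE2C* (0.54), *KIF23* (0.46), *CDC20* (0.43) and *CDCA8* (0.33). Differences below 0 were found for *CDC25B* (-0.56), *HMMR* (-0.49), *DLGAP5* (-0.38), *PRC1* (-0.37), *CENPF* (-0.36) and *KIF20A* (-0.36). Of the 17 calls, 12 were made under every alternative other than left-out libraries.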

How the results depend on the processing

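Of the calls on members, 31 of 36 in MDA-MB-231, 21 of 29 in 4T1 and 12 of 17 between the lines were made under every alternative other than left-out libraries, and no called member changed direction under any alternative run. Members called lower numbered 30 (total counts) to 37 (replicate block) in the human line and 20 to 29 in the murine one, and with a library left out 31 to 35 and 24 to 28. Members lower in both lines numbered 17 with total counts and 22 to 25 with a library left out. Members called higher in MDA-MB-231 numbered 3 with total counts, the replicate block or the libraries numbered 1 left out, 2 with at least 10 counts in every library, and 1 to 2 with a library left out. The replicate block changed the calls of *CCNB2*, *BIRC5*, *DLGAP5* and *KIF20A* in MDA-MB-231, *Cdca8* in 4T1 and the differences of *CDK1*, *ECT2*, *ESPL1* and *INCENP*, as given beside those results, and no other call on a member. Differences with the 4T1 response below numbered 3 with TMM within each line, 1 with total counts and 1 to 6 with a library left out. Of the other mitotic genes, those higher in MDA-MB-231 numbered 0 with DESeq2, DESeq2 size factors, no filter and each library left out (0 to 0), and those lower in 4T1 numbered 26 with total counts. G1/S genes higher in 4T1 numbered 8 with total counts, 7 with the replicate block and 3 to 6 with a library left out. Direction under the alternatives was followed for all members in each line and, between the lines, for the 17 calls and *CCNB1*, *PLK1* and *CDK1* alone. Among these, direction changed only for values near 0 that were not called: with total counts in 4T1 *Cdc25c* (0.07), *Bub3* (0.03), *Ttk* (0.11), *Kif20a* (0.01) and the *PLK1* difference between the lines (0.03), *Aurkb* with DESeq2 (-0.01), its size factors (-0.01) and the libraries numbered 1 left out (-0.02), *Ttk* with at least 10 counts (0.01) and those libraries left out (0.05), and *Spc25* without them (-0.05). With a single library left out the values lay within ranges of -0.12 to 0.02 for *Cdc25c*, -0.02 to 0.01 for *Aurkb*, -0.04 to 0.05 for *Ttk*, -0.20 to 0.19 for *Spc25* and -0.11 to 0.02 for the *PLK1* difference. The causes were not tested. *HMMR* in MDA-MB-231 and *Spc25* in 4T1 have the largest standard errors among the members in their lines, and whether depth limits them was not tested.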
